A study of Mus musculus with 4 samples.

Results

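Erythroid-primed cells were 173 of the 13892 LSK cells that could be read in 4 single-cell libraries of mouse bone marrow, or 1.25%. LSK cells (lineage negative, Sca-1 positive, c-Kit positive) are the sorted fraction that holds blood stem cells and multipotent progenitors. A cell was eligible with at least 1000 unique molecular identifiers (UMIs, 1 per captured RNA molecule), at most 10% mitochondrial UMIs and no other library holding its barcode with 3-fold or more UMIs. It was erythroid-primed with at least 3 UMIs of Car1, at least 2 UMIs of Klf1, Ermap, Epor, Rhd and Cldn13 together, and at most 1% of its UMIs from Hba-a1, Hba-a2 and Hbb-bs. The cells were thus chosen by their UMI counts of these 9 genes, so their values are given as a description and were not tested.

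The study asked what the nuclear pore protein Nup358 (gene Ranbp2) does in blood cell production. Control mice carried Nup358 fl/fl alleles without Cre, although the deposited labels call them wild-type, and Nup358 knockout mice carried Nup358 fl/fl alleles with R26-CreERT2, a tamoxifen-activated recombinase expressed in all tissues, which removes exon 2. Both genotypes received tamoxifen for 3 days, and the study used mice between 9 and 12 weeks of age. Each genotype had 2 libraries, each pooled from the marrow of 3 mice, and nothing in the labels pairs a control with a knockout library. Because the Cre acts in every tissue, changes that arise in LSK cells and changes that arise in their surroundings cannot be told apart.

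Erythroid priming is the stage at which a multipotent progenitor starts to transcribe red cell genes before it has left the stem and progenitor compartment. GATA1, with its cofactor FOG1 (Zfpm1) and the partners TAL1, LMO2 and LDB1, turns on the red cell genes, and KLF1 adds those of the membrane skeleton, blood group antigens and haem synthesis. Haemoglobin is made late, after the cell has begun to import iron through the transferrin receptor and to build haem. Erythroid cells share a bipotent ancestor with megakaryocytes, which use GATA1 as well.

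Promoters of 5 genes are shown because GATA1 and KLF1 bind short words in DNA. Klf1 is a gene of the rule, and Add2, Kel, Rhag and Hemgn belong to the gene lists described below. All 5 windows hold a GATA word, so they are examples and do not stand for the lists. Each window is the 250 bases before the RefSeq gene start on GRCm38.p6, written 5′ to 3′ on the strand of the gene. Capitals mark GATA words on either strand (AGATAA and AGATAG, as well as TGATAA and TGATAG) and CACCC-type words (CCACACCC, CCGCACCC, CCACGCCC or CCGCGCCC on either strand).
Klf1 (chr8:84901732-84901981, plus strand): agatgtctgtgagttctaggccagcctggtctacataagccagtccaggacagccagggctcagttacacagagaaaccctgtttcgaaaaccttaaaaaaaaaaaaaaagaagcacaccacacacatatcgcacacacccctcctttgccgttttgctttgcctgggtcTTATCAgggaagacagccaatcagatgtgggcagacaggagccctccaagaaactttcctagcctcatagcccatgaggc
Add2 (chr6:86028431-86028680, plus strand): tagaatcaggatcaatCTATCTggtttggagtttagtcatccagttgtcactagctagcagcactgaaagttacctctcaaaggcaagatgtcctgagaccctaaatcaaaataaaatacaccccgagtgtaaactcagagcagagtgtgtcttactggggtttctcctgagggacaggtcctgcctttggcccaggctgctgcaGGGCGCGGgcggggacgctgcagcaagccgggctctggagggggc
Kel (chr6:41704326-41704575, minus strand): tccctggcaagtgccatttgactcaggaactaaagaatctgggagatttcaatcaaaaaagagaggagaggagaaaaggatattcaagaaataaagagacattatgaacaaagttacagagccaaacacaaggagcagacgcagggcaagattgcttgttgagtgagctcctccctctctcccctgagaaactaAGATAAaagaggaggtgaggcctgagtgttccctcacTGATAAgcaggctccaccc
Rhag (chr17:40810899-40811148, plus strand): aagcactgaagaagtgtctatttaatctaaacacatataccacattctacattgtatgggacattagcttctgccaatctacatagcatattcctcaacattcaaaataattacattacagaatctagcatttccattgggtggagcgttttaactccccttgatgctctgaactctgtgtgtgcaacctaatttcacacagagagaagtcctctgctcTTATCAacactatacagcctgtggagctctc
Hemgn (chr4:46404184-46404433, minus strand): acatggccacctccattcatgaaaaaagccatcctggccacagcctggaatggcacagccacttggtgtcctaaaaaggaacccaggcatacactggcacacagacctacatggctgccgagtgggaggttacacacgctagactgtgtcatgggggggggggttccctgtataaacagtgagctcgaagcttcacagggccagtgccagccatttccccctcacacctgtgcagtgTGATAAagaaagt

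The GATA word nearest the gene start began 13 bases before it in Hemgn, 19 in Kel, 31 in Rhag, 80 in Klf1 and 234 in Add2. Add2 alone of these 5 windows also held a CACCC-type word, 45 bases before the start. Of the 26 genes in the list of erythroid surface and membrane skeleton genes, rule genes included, 17 matched a RefSeq window, and 11 of their 21 windows (52.4%) held a GATA word. The share over all 32851 windows of the same length was 26.5%. It was 37.0% of 27 windows for the erythroid transcription factors, 33.3% of 18 for the 15 genes with the largest rises against the other cells, 32.0% of 25 for the genes that fell in knockout, 33.3% of 6 for those that rose and 27.3% of 11 for neutrophil genes. A CACCC-type word stood in 12.2% of all windows, and in the same order of the 6 gene sets, beginning with the surface and skeleton genes, in 19.0%, 29.6%, 27.8%, 28.0%, 16.7% and 9.09%. A word in a window is a description of the letters and does not show that a factor binds there.

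The libraries were unequal in size. Control replicate 1 held 98 erythroid-primed cells with 1296750 UMIs in all, and control replicate 2 held 14 with 296383. Nup358 knockout replicate 1 held 17 with 578172 UMIs, and knockout replicate 2 held 44 with 1385386. Of 173 erythroid-primed cells, 131 had a barcode that also occurred in another library. By the eligibility rule none of these had 3-fold or more UMIs there, and among eligible cells no barcode was erythroid-primed in 2 libraries. With copied barcodes kept, 99 and 17 control cells and 21 and 44 knockout cells were erythroid-primed. Copied barcodes made up 81.8% of those deposited for control replicate 2, 65.3% for knockout replicate 1, 18.8% for knockout replicate 2 and 14.8% for control replicate 1.

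The share of erythroid-primed cells was close to 1% in each library. It was 1.26% (95% exact binomial interval 1.02 to 1.53) and 1.17% (0.643 to 1.96) in the control libraries, and 1.08% (0.632 to 1.73) and 1.32% (0.961 to 1.77) in the knockout libraries. The means were 1.22% ± 0.059 for control and 1.20% ± 0.169 for knockout (SD, n = 2 each), a difference of -0.0137 percentage points (two-sided exact permutation test p = 1, the smallest this design allows being 0.333). These intervals cover counting error only. The shares moved when cells under 5000 UMIs were left out and the others were thinned to 5000 UMIs before the rule was applied. This kept 4882 of 7797 and 1174 of 1193 eligible control cells and 1382 of 1571 and 3063 of 3331 eligible knockout cells, and the parts of the removal and of the thinning were not separated. In these cells 1.43% (70 of 4882) and 0.511% (6 of 1174) of control cells met it, against 0.0724% (1 of 1382) and 0.490% (15 of 3063) of knockout cells. Both knockout libraries then lay below both control libraries, with a difference of -0.691 percentage points (exact permutation p = 0.333).

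**Figure D1:**
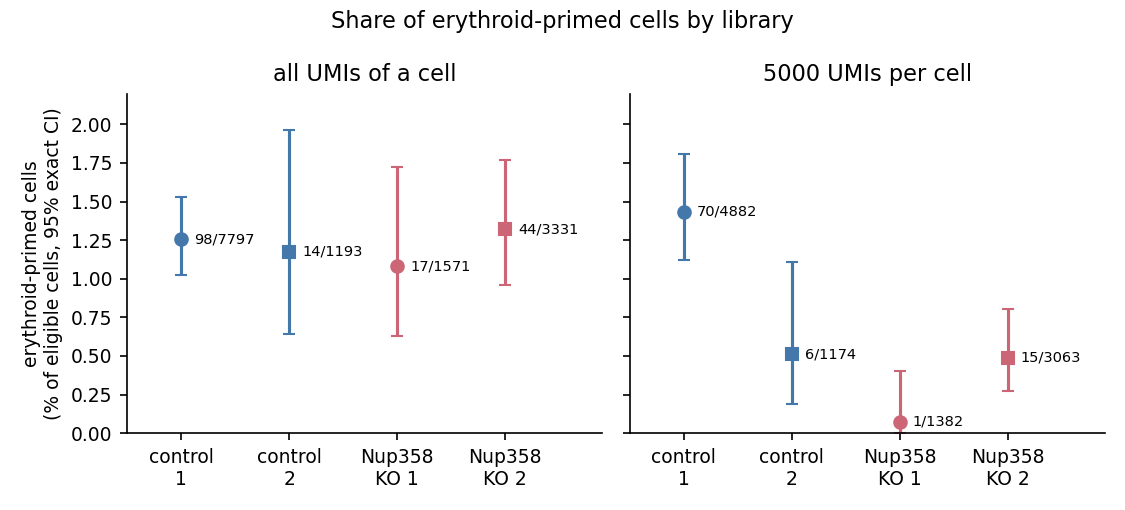
Percent of eligible cells that met the erythroid-primed rule in each of the 4 libraries (points, with 95% exact binomial intervals), at full depth in the left panel and, in the right panel, in the cells with at least 5000 UMIs after thinning to 5000. At full depth the points lie between 1.08% and 1.32%, and after thinning knockout replicate 1 falls to 0.0724%.

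Erythroid-primed cells were rich in RNA. Their median UMI count was 12186.5 and 20529 in control and 33964 and 28141 in knockout, which was 1.96, 1.56, 1.91 and 1.94 times the median of the other eligible cells of the same library. A rule that asks for a fixed number of UMIs favours cells with more of them, so this ratio was not tested. The knockout cells were deeper than the control cells, so that a lower level of Car1 sufficed there to pass. Mitochondrial UMIs had medians between 2.53% and 3.19%.

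Car1, carbonic anhydrase 1 and the defining gene of the rule, stood at 2758 and 2605 CPM (UMIs per 1000000 UMIs of the erythroid-primed cells of a library) in control and at 1254 and 2015 CPM in knockout. In the other eligible cells it was at 6.74, 9.70, 12.7 and 12.3 CPM. Klf1, the erythroid Krüppel-like factor on chromosome 8, was at 195 and 128 CPM in control and 83.0 and 104 CPM in knockout. Both genes were lower in both knockout libraries, which hold the deeper cells.

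Ermap, an erythroblast membrane protein of the Scianna blood group, was at 334, 115, 38.1 and 93.8 CPM in the same order. Epor, the erythropoietin receptor, was level at 37.8, 40.5, 31.1 and 34.6 CPM. Rhd, the D antigen of the Rh blood group, had 117 and 50.6 CPM in control but no UMI in knockout replicate 1 and 4.33 CPM in knockout replicate 2. Cldn13, a claudin of mouse red cell precursors, followed the same order at 110, 23.6, 1.73 and 5.77 CPM. Among the 173 cells, 157 held a UMI of Klf1, 134 of Ermap, 90 of Epor, 69 of Rhd and 46 of Cldn13.

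**Figure D2:**
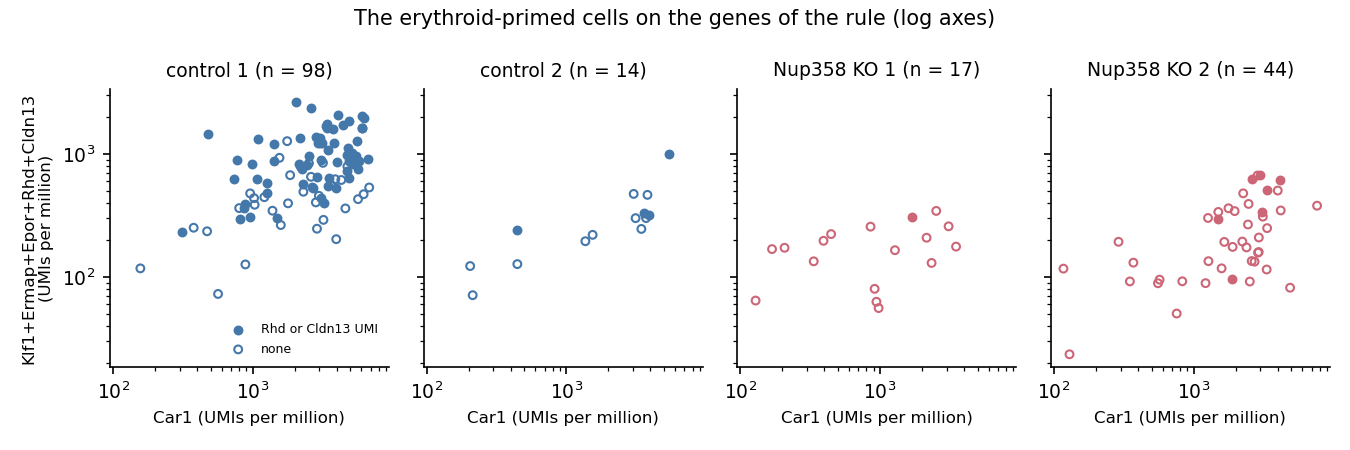
Each point is 1 erythroid-primed cell, placed by its Car1 level (horizontal) and the summed level of Klf1, Ermap, Epor, Rhd and Cldn13 (vertical), both as CPM of that cell on log axes, with a panel per library and filled points for cells with a UMI of Rhd or Cldn13. The median cell had 2878 and 3081 CPM of Car1 in control and 943 and 2328 CPM in knockout.

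The cells spread widely on these genes within every library. Single cells ranged from 157 to 6815 CPM of Car1 in control replicate 1 and from 117 to 7656 CPM in knockout replicate 2. A Car1 count of exactly 3 was found in 4 erythroid-primed cells, and 6 cells fell just outside with exactly 2. The 4 inside held Gata1 at 99.6 CPM and the water channel Aqp1 at 139 CPM, and the 6 outside held them at 112 and 102 CPM. Mpo, a neutrophil gene, was at 239 CPM (12 UMIs) inside and 18.6 CPM (2 UMIs) outside, and Pf4, a megakaryocyte gene, at 0 and 18.6 CPM (2 UMIs). A further 41 cells met the Car1 minimum with 1 UMI of the other 5 genes, against 26 with exactly 2. The cap on haemoglobin left out 4 cells, all from control libraries.

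Markers outside the rule went with the name. Of 13 erythroid markers that the rule did not use, 12 could be tested and all 12 were higher in the erythroid-primed than in the other eligible cells. The exception was Alas2, the erythroid enzyme of the first step of haem synthesis, which had 1 UMI in 1 cell. Over all genes, 1022 (8.36%) were higher and 1389 (11.4%) lower in erythroid-primed cells, of 12231 tested outside the rule (edgeR quasi-likelihood test on UMIs summed per library with library as a term, Benjamini-Hochberg adjusted p below 0.05), and the median log2 difference over them was -0.03. The stem and progenitor surface was kept in part. Kit, the receptor of the sort, was at 120, 152, 135 and 80.1 CPM in control 1, control 2, knockout 1 and knockout 2, above the other cells in all 4 libraries (log2 difference 0.42 ± 0.12 SE, adjusted p = 0.013). Ly6a, which encodes Sca-1, was present at 69.4, 30.4, 100.3 and 94.6 CPM and lower than in the other cells in all 4 (-1.38 ± 0.15, adjusted p = 1.3e-06). In knockout replicate 2, 20 of 44 cells held a UMI of Ly6a, and 1 cell held 57 of them.

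Of the erythroid transcription factors tested, 9 of 18 were higher and 2 lower. Gata1 on the X chromosome, the master regulator of the lineage, was at 108, 118, 70.9 and 91.7 CPM in erythroid-primed cells and at 7.90, 5.98, 8.93 and 10.1 CPM in the others (log2 difference 3.54 ± 0.18, adjusted p = 1.5e-11). The groups were far apart in every library. Its cofactor Zfpm1 (1.53), the repressor Gfi1b (1.77), the helix-loop-helix factor Tal1 (1.15), the bridging protein Ldb1 (0.87) and Bcl11a (0.69), which silences fetal globin genes, were also higher. Lyl1, a relative of Tal1, was lower (-0.92), and so was Lmo2 (-0.38). Gata2, which GATA1 replaces as red cells mature, was still present at 72.5, 142, 256 and 136 CPM and higher than in the other cells (1.03 ± 0.16).

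Erythropoietin signalling was mixed, with 5 of 16 genes higher and 4 lower. The kinase Jak2, which the receptor activates, was at 47.8, 30.4, 57.1 and 26.7 CPM against 22.8, 21.5, 22.8 and 21.1 CPM in the other cells (0.89 ± 0.18, adjusted p = 0.0013). Its targets Stat5a (0.71) and Stat5b (0.48) were higher as well. Several inhibitors were lower. Socs3 (-1.48), Socs2 (-1.17) and Socs1 (-1.02) inhibit cytokine receptors, and Pim1 (-1.15) is a kinase that STAT5 induces, and these 4 were the genes that passed as lower. Cish, another inhibitor that STAT5 induces, did not pass (-0.40 ± 0.29).

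Red cell surface and skeleton genes were higher in 15 of 19 cases and lower in none, with a median log2 difference of 4.13. Atp1b2, a subunit of the sodium pump, was at 84.1, 70.9, 38.1 and 50.5 CPM and under 1 CPM in the other cells of each library (7.85 ± 0.35, adjusted p = 1.3e-12). Aqp1 was at 246, 186, 64.0 and 221 CPM against 4.85, 4.85, 3.95 and 6.24 CPM (5.16 ± 0.20). Both were higher in all 4 libraries, with no overlap.

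Blood group genes were in the same list. Kel, the Kell antigen, was at 24.7, 20.2, 10.4 and 8.66 CPM with GATA words 56 and 19 bases before its start (log2 difference 6.18 ± 0.58). Rhag, the partner of the Rh antigens, was at 40.9, 27.0, 17.3 and 7.94 CPM (5.55 ± 0.49). The skeleton genes Add2 (6.62), Ank1 (5.64) and Sptb (4.13), which encode adducin, ankyrin and a spectrin chain, were all higher. Cd47, the signal that spares a cell from macrophages and the most abundant of the list, was at 450 to 587 CPM and did not pass the test (0.07 ± 0.08).

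Enzymes and other early erythroid genes were higher in 18 of 19 cases and lower in 1, with a median of 2.66, counting Ank1 again. Pklr, red cell pyruvate kinase, had 40.1, 6.75, 0 and 8.66 CPM in the 4 libraries and a single UMI in all other cells. Sphk1, which makes sphingosine 1-phosphate, was at 101, 27.0, 0 and 9.38 CPM (8.15 ± 0.70, adjusted p = 4.0e-08), and Mfsd2b, which exports that lipid, was at 47.0, 111, 36.3 and 43.3 CPM (3.46 ± 0.25). Sphk1 was thus not seen in knockout replicate 1, where 3 UMIs would correspond to 5.19 CPM. Blvrb, biliverdin reductase B, was at 1024, 439, 170 and 279 CPM against 40.2, 43.6, 30.5 and 35.7 CPM in the other cells (3.45 ± 0.23). The metallothionein Mt2 (6.16 ± 0.47) and its neighbour Mt1 (2.66 ± 0.16) were higher too. The gene with the opposite sign was Cnrip1 (-1.27).

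Haem synthesis was higher in 9 of 14 genes and lower in 1. Cpox, coproporphyrinogen oxidase, was at 174, 87.7, 57.1 and 109 CPM (2.39 ± 0.21), and Alad (1.33), Urod (0.78) and Fech (1.10), which act at other steps, were higher in all 4 libraries. The member with the opposite sign was Alas1, the form of the first enzyme that all tissues use, at 31.6, 23.6, 12.1 and 11.5 CPM against 62.9, 70.8, 19.8 and 15.6 CPM (-0.89 ± 0.20, adjusted p = 0.0026). The erythroid form Alas2 was near 0, as given above.

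Iron handling was higher in 6 of 12 genes and lower in none. The iron exporter Slc40a1 was at 37.8, 23.6, 12.1 and 7.94 CPM against 0.897 to 1.51 CPM in the other cells (4.01 ± 0.47), and the ferrireductase Steap3 (2.30), the iron transporter Slc11a2 (1.85), Tfr2 (1.27) and Glrx5 (1.10), which serves iron-sulfur cluster assembly, were higher as well. Tfrc, the transferrin receptor, was higher by less (0.90 ± 0.20). Globin RNA was low. Hbb-bt, the only globin gene outside the rule that could be tested, was at 23.9, 3.37, 62.3 and 88.8 CPM against 60.2, 359, 166 and 223 CPM in the other cells (-1.73 ± 0.27). The cap on other haemoglobin genes bears on that value, and reads of Hbb-bt and its near-identical copy Hbb-bs can be confused.

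**Figure D3:**
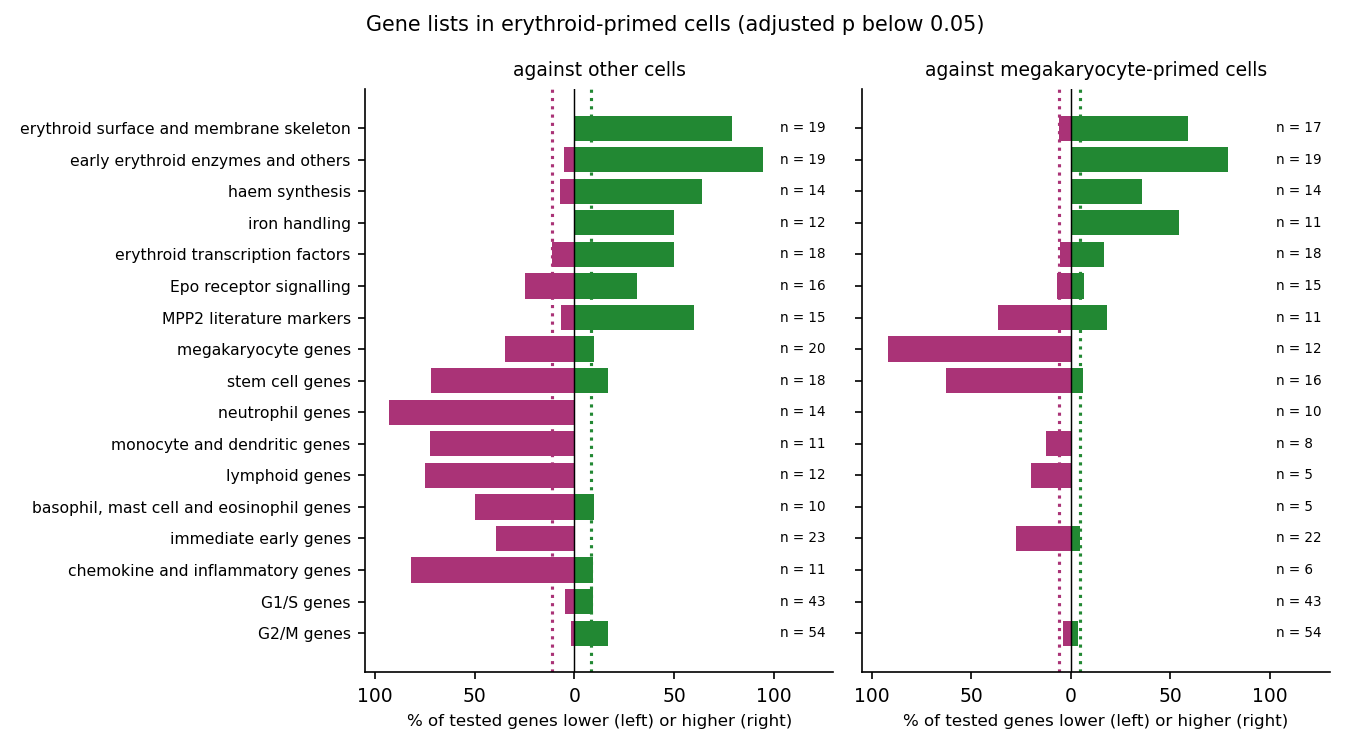
Percent of the tested genes of each list that were higher (to the right) or lower (to the left) in erythroid-primed cells at an adjusted p below 0.05, against the other eligible cells and against megakaryocyte-primed cells. Dotted lines mark the same percent over all genes tested, 8.36% and 11.4% in the first comparison and 4.62% and 6.03% in the second.

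Among the genes with the 15 largest rises against the other cells were several with no listed red cell role. Slc25a21, a mitochondrial carrier on chromosome 12, was at 57.1, 43.9, 8.65 and 13.7 CPM and under 1 CPM elsewhere (8.01 ± 0.60). The amino acid transporter Slc38a5 (7.53), the collagen gene Col5a1 (6.85) and Tspo2 (6.81), an erythroid relative of the mitochondrial translocator protein, were counted in 46 to 85 cells each. Gml2 had 23 UMIs in erythroid-primed cells of 2 libraries and none in the other cells, at least 347-fold higher with 3 UMIs over all other cells as the floor, but 26.1% of its UMIs came from 1 cell. Gm15915, a noncoding transcript used as a marker of MPP2 cells, was at 222, 331, 424 and 590 CPM (5.45 ± 0.16, adjusted p = 1.5e-15).

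Genes of other lineages were lower. Neutrophil genes were lower in 13 of 14 cases (median -2.46), monocyte and dendritic genes in 8 of 11 (-1.97), lymphoid genes in 9 of 12 (-3.10, or -2.23 with unseen genes at their floor) and basophil, mast cell and eosinophil genes in 5 of 10 (-2.66, or -1.91). None of the first 3 lists had a higher member. The exception in the last was Ms4a2, a chain of the IgE receptor, at 10.8, 0, 53.6 and 13 CPM (2.45 ± 0.43), with 41.3% of its UMIs in 1 cell. Il7r, the receptor of early lymphoid cells, and Prss34, a basophil protease, had no UMI in any erythroid-primed cell, and were at least 6.13-fold and 44.2-fold lower than in the other cells.

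Myeloid RNA was not absent. Mpo, the neutrophil granule enzyme, was at 781, 125, 100.3 and 121 CPM in erythroid-primed cells and at 3069, 1563, 559 and 382 CPM in the others. The summed level of the 14 neutrophil genes was 2477, 351, 303 and 294 CPM in erythroid-primed cells and 10664, 8075, 1905 and 1289 CPM in the others, with 1 gene of the list, Fcnb, at 0. With cells under 5000 UMIs left out and the others thinned to 5000, Mpo was seen in 37.1%, 14.3%, 17.6% and 18.2% of the erythroid-primed cells and in 86.1%, 51.8%, 46.4% and 39.7% of the others. Control replicate 1 had the highest share in both kinds of cell. The part of free RNA in these values was not tested.

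Stem cell genes were lower in 13 of 18 cases and higher in 3 (median -1.14). The stem cell factors Hlf (-1.61) and Mecom (-1.51), the endothelial protein C receptor Procr (-1.42) and Cd34 (-1.84), a surface marker that divides LSK cells into subsets, were lower in all 4 libraries. Slamf1, which encodes CD150 and marks both stem cells and MPP2, was at 3.86, 16.9, 24.2 and 29.6 CPM against 2.74, 4.69, 8.65 and 11.0 CPM (1.38 ± 0.28, adjusted p = 0.0012). MPP2 markers were higher in 9 of 15 genes and lower in 1, Pf4. Of 8 surface genes that define LSK cells or divide them into subsets, Kit and Slamf1 were higher and 4 were lower.

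Megakaryocyte genes were lower in 7 of 20 cases and higher in 2, against 11.4% and 8.36% of all genes tested. The platelet receptor subunit Gp5 was at 13.1, 10.1, 24.2 and 23.8 CPM against 4.25, 3.13, 4.04 and 5.36 CPM (2.09 ± 0.30), and the thrombin receptor F2r was also higher (1.55). Mmrn1, multimerin 1, was lower (-2.60). Of 173 erythroid-primed cells, 6 also met the rule for megakaryocyte-primed cells.

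Megakaryocyte-primed cells were taken as the nearest group for comparison, since that lineage uses GATA1 as well. They were 404 other eligible cells with at least 2 UMIs of Pf4 and at least 2 of a group of platelet surface genes together, among them Itga2b, Gp1ba, Gp1bb, Gp5, Gp6 and Gp9, so the genes of that group are not read below. Of 9141 genes tested outside both rules, 422 (4.62%) were higher in erythroid-primed cells and 551 (6.03%) lower (edgeR quasi-likelihood test, adjusted p below 0.05). The 973 calls became 434 without control replicate 1 and 395 without knockout replicate 2.

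Of the transcription factors, 3 of 18 were higher in erythroid-primed cells and 1 lower. Gata1 was at 57.4, 65.7, 28.9 and 51.9 CPM in megakaryocyte-primed cells, with a difference of 1.02 ± 0.14 (adjusted p = 0.00046). Ldb1 (1.06 ± 0.22) and Bcl11a (0.49 ± 0.11) were higher too, and Lmo2 was lower (-0.44 ± 0.10). The log2 differences were 0.00 ± 0.26 for Gata2 (95% interval -0.55 to 0.55), -0.19 ± 0.13 for Zfpm1, 0.26 ± 0.15 for Tal1 and -0.10 ± 0.26 for Gfi1b, and none of these passed.

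Genes of red cell function passed in larger numbers. Early erythroid enzymes were higher in 15 of 19 and lower in none, surface and skeleton genes higher in 10 of 17 and lower in 1, iron genes higher in 6 of 11 and haem genes in 5 of 14. Atp1b2 (7.34), Tspo2 (6.98), Add2 (6.59) and Ank1 (5.72) were among the largest differences, with Trib2, a pseudokinase, at 56.3, 94.5, 83.0 and 64.2 CPM against 0.736, 0, 0 and 0.587 CPM (7.28 ± 0.37). Sphk1 had no UMI in megakaryocyte-primed cells and was at least 113-fold higher in erythroid-primed cells. Slc14a1, the urea transporter of the Kidd blood group, was the surface gene that was lower, at 28.5, 64.1, 65.7 and 51.2 CPM against 99.4, 91.3, 69.4 and 107 CPM (-0.88 ± 0.22). Mfsd2b did not separate them (0.34 ± 0.18).

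On the other side, 11 of 12 megakaryocyte genes outside the rule were lower in erythroid-primed cells and none higher. Vwf, von Willebrand factor, was at 3.08, 0, 8.65 and 0.722 CPM against 104, 84.0, 11.7 and 53.7 CPM (-4.39 ± 0.52, adjusted p = 0.00015). The stem cell genes were lower in 10 of 16 cases and higher in 1, among them Mecom (-1.16) and Hlf (-0.97). No neutrophil gene of 10 passed in either direction, by edgeR or DESeq2. At an unadjusted p below 0.05 edgeR counted 1 higher and 2 lower, against 2343 of all 9141 genes in either direction.

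Most G2/M genes lay above the other cells by small amounts. Of 54 tested, 44 had a log2 difference above 0 (median 0.18), and 9 passed as higher and 1 as lower. Of 43 G1/S genes, 18 were above 0 (median -0.04), and 4 passed as higher and 2 as lower. Over all genes tested, 8.36% were higher and 11.4% lower. Mki67, the proliferation marker, was at 431, 206, 377 and 297 CPM against 251, 136, 204 and 247 CPM (0.66 ± 0.10, adjusted p = 7.4e-05), higher in all 4 libraries. After thinning to 5000 UMIs, 65.2% (58 of 89) and 35.7% (5 of 14) of control and 64.7% (11 of 17) and 81.8% (36 of 44) of knockout erythroid-primed cells were scored as G2/M. In the other cells the shares were lower in every library, at 55.4%, 19.1%, 47.0% and 57.3%, in the same order. The genotype means of the erythroid-primed cells were 50.4% ± 20.8 and 73.3% ± 12.1 (SD, n = 2 each), and the difference of 22.8 percentage points did not pass (two-sided exact permutation p = 0.667, the smallest possible being 0.333). Phase scores read free RNA as well, and its part was not tested.

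The genotypes were compared within the erythroid-primed cells. Ranbp2 on chromosome 10, the deleted gene, was at 188 and 87.7 CPM in control and 175 and 120 CPM in knockout (log2 difference -0.07 ± 0.31). The deletion removes exon 2, and 3′ counts read the other end of the gene, so this does not check the labels. Of 7640 genes tested outside the rule, 6 (0.0785%) rose and 23 (0.301%) fell in knockout (edgeR quasi-likelihood test, adjusted p below 0.05), and the median log2 difference over all of them was -0.02. Both knockout libraries lay beyond both control libraries for each of the 29, as they did upward for 20.3% and downward for 14.4% of all genes tested. DESeq2 called 10 genes. Without knockout replicate 2 the edgeR test called 0 genes, with 283 at an unadjusted p below 0.05, and without control replicate 2 or knockout replicate 1 it called 177 and 46. Without control replicate 1, which held 98 control cells against 14 in the other, it called 41 genes, and 9 of the 29 were among them, of 25 that could be tested.

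Several genes of the red cell lists were among those that fell. The knockout cells were deeper, so a lower level of the rule genes sufficed there to pass. The median cell had 740 and 273 CPM of Klf1, Ermap, Epor, Rhd and Cldn13 together in control and 173 and 193 CPM in knockout. The part of this selection in the falls, and in the rises given below, was not tested. Blvrb went from 1024 and 439 CPM in control to 170 and 279 CPM in knockout (log2 difference -1.75 ± 0.35, adjusted p = 0.036), and was counted in 98 of 98, 14 of 14, 15 of 17 and 43 of 44 cells. Smim1, the Vel blood group antigen, went from 100.3 and 67.5 to 15.6 and 20.2 CPM (-2.28 ± 0.34, adjusted p = 0.0029). Hemgn, a nuclear protein of blood progenitors, went from 47.8 and 40.5 to 13.8 and 10.1 CPM (-2.03 ± 0.39, adjusted p = 0.026). All 3 had no overlap between genotypes.

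Sphk1 fell from 101 and 27.0 CPM to 0 and 9.38 CPM (-3.55 ± 0.59, adjusted p = 0.0069). Add2 fell from 63.2 and 23.6 to 5.19 and 13.7 CPM (-2.24 ± 0.45, adjusted p = 0.037), and the tetraspanins Tspan33 (-2.24 ± 0.41) and Tspan8 (-3.48 ± 0.69) fell with it. The globin gene Hbb-bt rose, as given below. Over the lists, 3 of 17 surface and skeleton genes fell and none rose (median -0.84, 15 of 17 below 0), and 4 of 16 early enzymes and others fell and none rose (-0.76, 14 of 16 below 0), against 0.301% of all genes that fell. DESeq2 called none of the surface genes and 1 of the early enzymes and others. Aqp1 (-0.61 ± 0.39) and Kel (-1.36 ± 0.48) did not pass.

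Cox6b2, a cytochrome oxidase subunit known from testis, had the smallest adjusted p of the 29. It was at 274 and 169 CPM in control and 34.6 and 32.5 CPM in knockout (-2.82 ± 0.31, adjusted p = 0.00031), in 133 of the 173 cells. The other cells showed a fall as well, from 68.7 and 77.7 to 34.3 and 34.5 CPM (-1.13 ± 0.15, adjusted p = 0.020), and the difference between the falls passed (-1.72 ± 0.25). Prss50, a serine protease, fell from 50.9 and 27.0 to 0 and 2.17 CPM (-4.75 ± 0.63), and Ctse, the aspartic protease cathepsin E, from 70.9 and 30.4 to 10.4 and 4.33 CPM (-3.19 ± 0.48). The phosphatase gene Ppm1l fell as well (-3.35 ± 0.69).

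**Figure D4:**
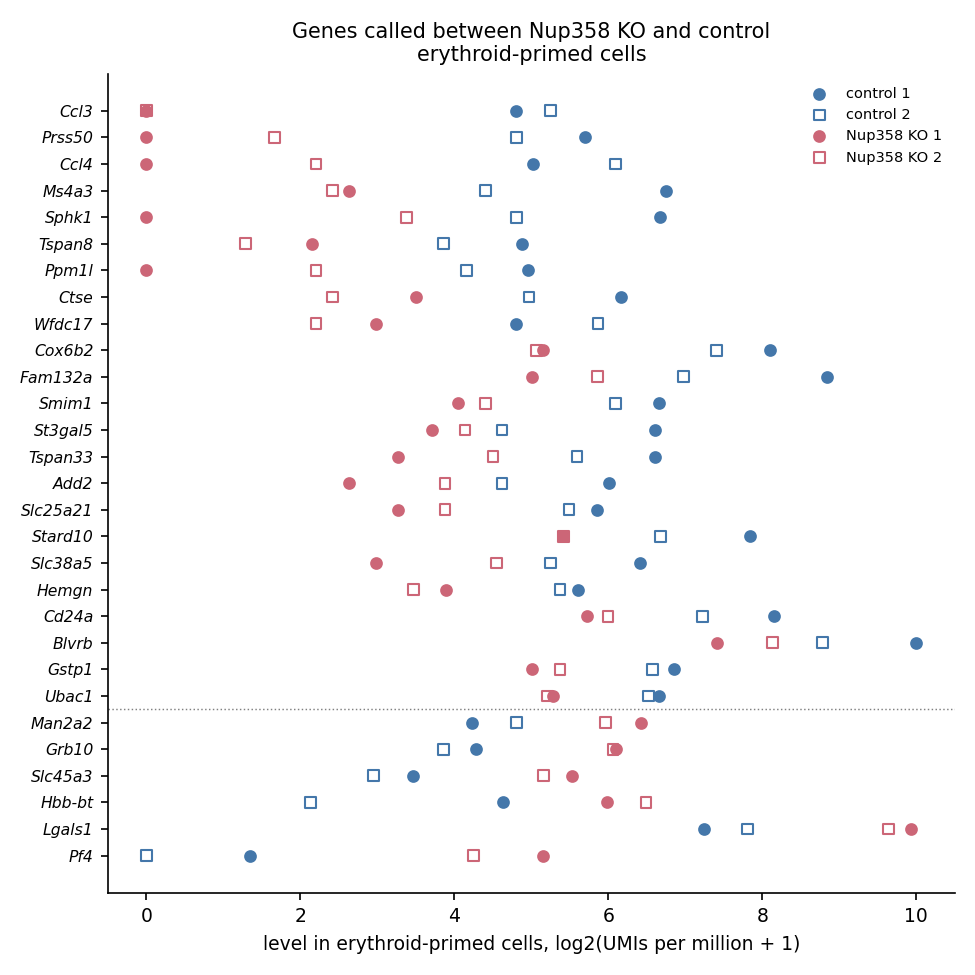
Level of each gene called between genotypes in erythroid-primed cells, as log2 of CPM plus 1, with 1 symbol for each of the 4 libraries and the genes that fell above the dotted line. Both knockout symbols lie on the same side of both control symbols for all 29 genes, and the knockout libraries are at 977 and 799 CPM for Lgals1 against 150 and 223 CPM in control.

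Haem synthesis, iron handling, the erythroid transcription factors and erythropoietin signalling had no member that passed, of 13, 11, 17 and 9 tested, and DESeq2 called none of them either. At an unadjusted p below 0.05 the counts of lower genes were 8, 2, 3 and 0, and 1 transcription factor was higher. Over all genes tested, 524 of 7640 had such a p in either direction. Their medians were -0.73, -0.29, -0.31 and -0.08. Alad stood at 281 and 182 CPM in control and 89.9 and 134 CPM in knockout (-1.11 ± 0.29, adjusted p = 0.15), and Gata1 at 108 and 118 against 70.9 and 91.7 CPM (-0.49 ± 0.29, 95% interval -1.09 to 0.11). Epor, in the rule, was level, as given above.

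Genes of other lineages moved as well. The chemokines Ccl3 and Ccl4 and the small secreted protein Wfdc17 fell, 3 of the 6 chemokine and inflammatory genes tested (median -1.79). Ccl3 was at 27.0 and 37.1 CPM in control and had no UMI in knockout, at least 18.9-fold lower with 3 UMIs over the knockout libraries as the floor, and 23.9% of its UMIs came from 1 cell. Ms4a3, a marker of granulocyte and monocyte progenitors, fell from 106 and 20.2 to 5.19 and 4.33 CPM (-4.02 ± 0.58), with 25.5% of its UMIs in 1 cell. These 4 genes fell in the other cells too, where the summed neutrophil list stood at 10664 and 8075 CPM in control and 1905 and 1289 CPM in knockout. The part of free myeloid RNA in these falls was not tested.

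Of the 6 genes that rose, Lgals1, the sugar-binding protein galectin-1 on chromosome 15, had the most UMIs. It went from 150 and 223 CPM in control to 977 and 799 CPM in knockout (2.21 ± 0.31, adjusted p = 0.0023), and was seen in 44 of 98 and 10 of 14 control cells and in 17 of 17 and 44 of 44 knockout cells, which are deeper. In the other cells it stayed at 392 and 335 against 382 and 400.2 CPM (0.07 ± 0.15). The difference between the genotype effects passed (2.24 ± 0.18), in a fit with one spread for all genes. The part of the selection by depth in these rises was not tested. Grb10, an imprinted adaptor that dampens growth factor receptors, rose from 18.5 and 13.5 to 67.5 and 65.7 CPM (1.90 ± 0.36), and rose in the other cells as well (1.51 ± 0.17). Slc45a3 (2.02) and the mannosidase gene Man2a2 (1.77) were the others with under 6% of their UMIs in 1 cell.

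Pf4, platelet factor 4, was at 1.54 and 0 CPM in control and 34.6 and 18.0 CPM in knockout (4.13 ± 0.80, adjusted p = 0.028), but 38.3% of its 47 UMIs lay in 1 cell. Hbb-bt rose from 23.9 and 3.37 to 62.3 and 88.8 CPM (2.02 ± 0.42), with 23.0% of its UMIs in 1 cell and the other cells at 60.2 and 359 CPM in control and 166 and 223 CPM in knockout. Megakaryocyte genes were above 0 in all 9 cases (median 0.99), and 1 passed. Without the 6 cells that also met the megakaryocyte rule, a selection added after the data were seen that removes Pf4 UMIs by its construction, 23 genes were called.

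**Figure D5:**
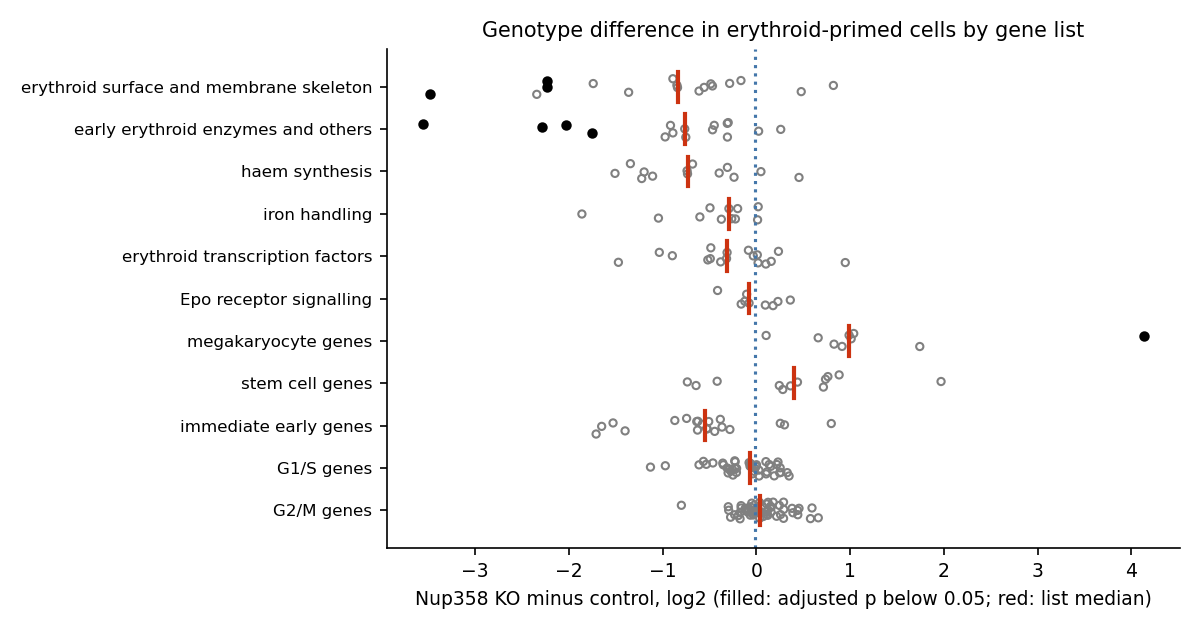
Log2 difference between Nup358 knockout and control erythroid-primed cells for each tested gene of the lists (points, filled where the adjusted p was below 0.05), with the median of each list in red and that of all tested genes as a dotted line. Erythroid surface genes have a median of -0.84 and megakaryocyte genes one of 0.99, and most points are open.

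The remaining lists had no member that passed between genotypes with edgeR or DESeq2. They were G1/S and G2/M genes (43 and 53 tested, medians -0.06 and 0.04), immediate early genes (20, -0.55), stem cell genes (12, 0.40), targets of p53 (10, 0.16), the HDAC3 and NCoR group (10, 0.02), LSK surface genes (7, -0.04), monocyte and dendritic genes (5, 0.80) and lymphoid genes (3, -0.10). At an unadjusted p below 0.05 these 9 lists together had 10 higher and 11 lower entries, a gene of 2 lists counting in each. Of the 11, 7 were immediate early genes, of which 17 of 20 were below 0. Over all genes tested, 524 of 7640 had such a p. The MPP2 markers had 1 rise, Pf4, of 10 tested (median 0.86), and the 1 tested gene of the basophil list was at 1.75.

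The blood group gene Rhd and the claudin gene Cldn13 were seen in a smaller share of the knockout cells. Of the control cells, 64 of 98 and 4 of 14 held a UMI of Rhd or Cldn13, and of the knockout cells 1 of 17 and 7 of 44, although the knockout cells were deeper. Thinned to 5000 UMIs the counts were 45 of 89, 2 of 14, 0 of 17 and 1 of 44. Both are genes of the rule, so this is a description. Hbb-bs RNA differed between the libraries at large. In the other cells Hbb-bs was at 84.2 and 952 CPM in control and 2.52 and 4.33 CPM in knockout. Hbb-bt, its near-identical copy, did not pass between genotypes there (log2 difference -0.17). All 13 eligible cells with over 1% of their UMIs from Hba-a1, Hba-a2 and Hbb-bs were control cells. The part of this RNA in the falls, and in the rise of Hbb-bt, was not tested.

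Selections of cells by genes of the rule are given as a description, since those genes differ between the genotypes and the selections therefore remove unequal shares of the cells. Among the 97 erythroid-primed cells with no UMI of Rhd or Cldn13, 8 genes were called between genotypes, and 6 of the 29 were called again of 20 that could be tested, all 20 with the same sign. These were 34 of 98 and 10 of 14 control cells and 16 of 17 and 37 of 44 knockout cells. Among cells with at least 1000 CPM of Car1, 82 of 98 and 10 of 14 in control and 7 of 17 and 35 of 44 in knockout, 31 genes were called, and 20 of the 29 were called again of 24 that could be tested. These selections were added after the data were seen.

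Whether the genotype difference in erythroid-primed cells departed from that in the other cells was tested with one spread for all genes. The rule let the deeper knockout cells pass at a lower level of its genes, so this test does not separate that selection from genotype. Its part in the differences below was not tested. Of 12231 genes, 51 (0.417%) had a higher and 55 (0.45%) a lower log2 difference in erythroid-primed cells (edgeR quasi-likelihood test of the interaction, adjusted p below 0.05). Of the early erythroid enzymes and others, 5 of 19 had a lower difference, Mt2, Blvrb (-1.34 ± 0.19), Car2 (-1.28 ± 0.17), Hemgn (-2.55 ± 0.44) and Minpp1 (-1.08 ± 0.25), and Apoe a higher one (0.84 ± 0.18). Of 19 surface and skeleton genes, Tspan33 was lower (-1.88 ± 0.44) and Muc13 higher (0.86 ± 0.22). Of 18 transcription factors, Gfi1b (-1.49 ± 0.36), Zfpm1 (-0.82 ± 0.21) and Sox6, which had no UMI in knockout erythroid-primed cells, were lower and Nfe2 was higher (0.93 ± 0.26). In haem synthesis Alad (-1.40 ± 0.22) and Cpox (-0.91 ± 0.25) of 14 genes were lower, in iron handling Tfrc of 12 (-1.06 ± 0.26), and the globin gene Hbb-bt was higher (1.17 ± 0.30). Of these erythroid genes DESeq2 called Hemgn and Alad. Mt2 was at 248 and 277 CPM in control and 55.3 and 208 CPM in knockout erythroid-primed cells, but at 1.11 and 0.862 against 6.38 and 3.78 CPM in the others (-3.12 ± 0.28). The immediate early gene Fos fell in the other cells, from 1050 and 1170 to 314 and 424 CPM, and stood at 449 and 682 against 356 and 405 CPM in erythroid-primed cells, so that the difference was 1.07 ± 0.17. Without control replicate 1 this test called 17 genes, without knockout replicate 1 it called 58, and DESeq2 called 18.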

How the data were processed

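LSK cells were sorted from bone marrow, and 3′ RNA of single cells was counted in droplets in 4 libraries (control and Nup358 knockout, 2 each). Per the labels and the methods of the study, the authors aligned the reads to GRCm38 with Cell Ranger 3.1 and deposited UMI counts of 27998 genes for each barcode, without normalization. The deposited counts summed to 60330267, 25111828, 35986936 and 54850344 UMIs in control 1, control 2, knockout 1 and knockout 2.

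Cells were chosen in Python 3.11.15 (pandas 2.3.3, numpy 2.4.6, scipy 1.17.1), without doublet removal. For every library, the UMIs of a cell group were added up and tested with edgeR 4.0.16 in R 4.3.3 (filterByExpr, TMM, quasi-likelihood test, Benjamini-Hochberg adjustment over all genes, threshold 0.05). Differences are log2 ± SE. DESeq2 1.42.0 was an alternative. The libraries of a genotype came from separate pools of mice and also differed in depth and in their share of copied barcodes, so p-values measure a spread that mixes both. Phases were scored with scanpy 1.11.5 from 43 G1/S and 54 G2/M genes. The interaction fit estimated one spread for all genes, so its SE and calls leave out how much each gene varies on its own between libraries. A gene carried by a single cell can therefore pass there.

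The cells, the 21 gene lists and the rules for named genes were chosen with earlier results of these data known. Named genes belong to the lists, are Ranbp2, or are among the 10 largest rises and 10 largest falls per genotype test (15 and 10 per test between cell groups) at an adjusted p below 0.05. In data simulated for the genotype test over 7438 genes, 89.25% of genes changed by a log2 fold of 2 and 26.8% of those changed by 1 were recovered, with 5.22% false calls. The simulated spread depended on the level of a gene alone, without genes carried by single cells or selection of cells by depth. These rates need not hold for the real counts. The alternatives named as added were chosen after the data were seen. Some genes of the lists and of the megakaryocyte rule are counted but not reported here by name.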

Additional observations from a re-analysis of the deposited data

Results flagged for a closer look

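The genotype effect in erythroid-primed cells differed from that in the other eligible cells by the interaction test for the 20 genes given here, the 10 largest in each direction. Values are the log2 difference in erythroid-primed cells minus that in the other cells. DESeq2 called 2 of the 20, Lgals1 and Vpreb1. Without control replicate 1, 4 of the 20 stayed called, 13 lost their call and 3 changed sign, and without knockout replicate 2 these counts were 4, 14 and 2. No group had enough libraries for a search for outlying samples.

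The difference was higher in erythroid-primed cells for Lgals1 (2.24) and for the chemokine receptor Cx3cr1 (5.95), which had 1 and 0 UMIs in control and 4 and 17 UMIs in knockout erythroid-primed cells. The integrin gene Itgal was at 6.94 and 10.1 CPM in control and 39.8 and 29.6 CPM in knockout erythroid-primed cells (1.93), and the coactivator gene Ncoa3 (1.99) and the nucleosome-binding Hmgn3 (1.97) were also spread over many cells, 37 and 28. Of the others, Jchain (12.46) had 85.1% of its UMIs in 1 cell, Ly6c2 (4.65) 81.4%, Pf4 (4.23) 38.3%, Ltb4r1 (3.79) 35.7% and Gm17590 (2.63) 32.2%. Jchain was seen in 3 erythroid-primed cells, all of knockout replicate 2.

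The difference was lower in erythroid-primed cells for the granule genes S100a9 (-11.20), S100a8 (-10.53) and Retnlg (-10.95), with 95.7%, 96.6% and 100% of their UMIs in 1 cell. Sox6, a repressor of embryonic globin genes, had 12.3 and 10.1 CPM in control and no UMI in knockout erythroid-primed cells (fitted value -9.94), from 19 UMIs in all. Crip2 was at 64.8 and 13.5 against 1.73 and 19.5 CPM (-3.85) and the lipase gene Mgll at 23.1 and 10.1 against 3.46 and 2.17 CPM (-4.14), in 57 and 29 cells. Ccnb1ip1 (-4.49), Vpreb1 (-4.31), Mcpt8 (-4.77) and Cecr2 (-7.62) had 25, 11, 10 and 6 UMIs in all erythroid-primed cells. The fitted values of Jchain, S100a8, S100a9, Retnlg and Sox6 are set by a genotype with no UMI in erythroid-primed cells, so they are neither sizes nor bounds of a difference.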

How the results depend on the processing

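The count of genes called between genotypes in erythroid-primed cells was 29, and it became 10 with DESeq2, 126 with no filter on low counts, 0 with cells thinned to 1000 UMIs (11 at an unadjusted p below 0.05), 134 with crossed replicate numbers as a block and 8 in cells without Rhd or Cldn13 UMIs, and it ran from 0 to 177 over the libraries left out in turn. Thinning to 1000 UMIs left 436 genes to test, with 1 of the 29 among them. With the replicate block the count was 31, 26 of them among the 29. The labels do not pair the libraries, and the deviations of same-numbered libraries correlated at -0.12 over 7772 genes. Against the other cells, 2411 genes were called, 260 after thinning to 1000 UMIs, and from 1664 to 2491 over the left-out libraries. Against megakaryocyte-primed cells the count was 973, 515 with DESeq2 and from 395 to 1133. The interaction test called 106, 18 with DESeq2 and from 17 to 133. The causes were not tested, except that thinning leaves fewer UMIs and genes.

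The difference in the share of erythroid-primed cells (-0.0137 percentage points) became 0.167 with shared barcodes kept, -0.146 with no cap on haemoglobin and -0.691 with cells thinned to 5000 UMIs, and lay between -0.133 and 0.106 over the left-out libraries. That of the G2/M share (22.8) kept its sign in every setting, from 8.09 to 37.5 over the left-out libraries. Of the 16 genes named by rank in the genotype test and the 25 in each test between cell groups, none changed direction where it could be tested. The other named genes were not followed one by one. After thinning to 1000 UMIs, 1697 of 1874 genes called against the other cells kept their sign. In the interaction test over the left-out libraries, Jchain ran from -2.68 to 14.08 and Ly6c2 from -1.51 to 16.07, with the lowest values without knockout replicate 2, and Retnlg ran from -12.31 to 1.22, S100a8 from -12.15 to 3.93 and Cecr2 from -12.30 to 2.39, with the highest values without control replicate 1. In the genotype test 53 of 225 values of these genes lost significance under an alternative, in the interaction test 65 of 200, against other cells 12 of 268 and against megakaryocyte-primed cells 3 of 226. The robust fit, the crossed block and the selections of cells by other genes or by Car1 level were added after the data were seen. With a lone library in a group, that library was assumed to vary like the other group. Depth limits the rest, since 3 UMIs correspond to 2.31, 10.1, 5.19 and 2.17 CPM in the erythroid-primed cells of the 4 libraries.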

Other observations

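Genes of acute stimulation were in part lower in erythroid-primed cells than in the other eligible cells. The summed level of 25 immediate early genes was 2955 and 4902 CPM against 5208 and 5705 CPM in the other cells of the control libraries, but 2466 and 2330 CPM against 2224 and 2540 CPM in those of knockout. In the interaction test Fos (1.07) and Egr1 (0.89) passed with a higher genotype difference in erythroid-primed cells, and the median over the 23 tested was 0.51. With the genotypes together, 9 of the 23 were lower than in the other cells and none higher (median log2 difference -0.46, against -0.03 over all genes), among them Klf2, a factor of quiescence, at 33.2, 27.0, 8.65 and 30.3 CPM against 104, 111, 48.3 and 64.6 CPM (-1.55), Nr4a1 (-1.21) and Fos (-0.45). Against megakaryocyte-primed cells 6 of 22 were lower and 1, Myc, was higher (0.65). Chemokine and inflammatory genes were lower in 9 of 11 cases (-1.92), with the NF-kB inhibitor Tnfaip3 higher (1.09).

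Among the targets of p53, 4 of 20 were higher than in the other cells and 2 lower, against 8.36% and 11.4% of all genes tested. The cell cycle inhibitor Cdkn1a was at 23.9, 20.2, 38.1 and 40.4 CPM in erythroid-primed cells and at 67.6, 85.6, 51.4 and 75.9 CPM in the others (-1.08), and Zmat3 was higher (1.40). Of the 10 genes of the HDAC3 and NCoR group, none passed with edgeR or DESeq2 against the other cells. An unadjusted p below 0.05 was found for 2 higher and 1 lower, against 3942 of all 12231 genes in either direction. Ranbp2 itself was higher than in megakaryocyte-primed cells (0.50 ± 0.14, adjusted p = 0.040 with edgeR), a call that DESeq2 did not make.

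A further 107 cells held at least 2 UMIs of Klf1, Ermap, Epor, Rhd and Cldn13 together but no UMI of Car1, 30 and 15 in control and 23 and 39 in knockout. They were not analysed further.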
